A study of Oryctolagus cuniculus with 9 samples.

Results

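Genes named ZNF followed by a number encode zinc finger proteins, and 155 of them were measured at a usable level in primary rabbit parathyroid cells. The genes were selected on their expression: of 208 such names in a table of 19511 loci, 155 had a value of at least 1 FPKM (fragments per kilobase of transcript scaled to the library's mapped fragments) in at least 3 of 9 libraries, and 53 did not. The study sequenced the RNA of 3 groups with 3 libraries each, and the labels give the genotype of every library as WT. Control cells were untreated and are placed at day 0. H/R cells were exposed to hypoxia for 6 h and then to reoxygenation for 6 h, which models ischaemia and reperfusion in culture. GA+H/R cells were given gallic acid, a plant phenolic acid, at 1200 µM for 24 h and then went through the same hypoxia and reoxygenation. Whether the H/R cells were held for those 24 h without gallic acid is not in the labels, nor whether the libraries of a group came from separate animals or cultures, so p-values here measure the spread between libraries only.

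Most ZNF proteins carry rows of C2H2 zinc fingers, small folds that hold a zinc ion and read DNA bases. The largest subfamily joins the fingers to a KRAB domain, which binds the corepressor TRIM28 and through it brings the histone methyltransferase SETDB1 to DNA, and many of these proteins silence transposable elements. A second subfamily carries a SCAN domain, through which the proteins pair with each other, while other ZNF proteins activate promoters, act in chromatin complexes, bind RNA or help to assemble ribosomes. Their mRNAs are generally scarce.

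The deposited FPKM differed in scale between the groups. They summed to between 1648012 and 1696488 over the controls, between 730117 and 752065 over H/R and between 467499 and 516231 over GA+H/R. Each library was therefore divided by its median ratio to the mean library over the 8448 loci at 1 FPKM or more in all 9 libraries, and the quotients are called relative FPKM below. "Rose" and "fell" describe relative FPKM, and changes on this scale are called relative to the median locus. Both words apply only to genes with a Benjamini-Hochberg adjusted p under 0.05 in limma over the 10996 loci that passed the same filter as the ZNF genes. The median of those loci did not stand exactly still. It changed by -0.03 (log2) after H/R, -0.01 from H/R to GA+H/R and -0.09 from control to GA+H/R. Log2 changes are on the log2(relative FPKM + 1) scale, which understates the change of low genes, and the error given is the SE. Control library 1 stood apart among the controls, with correlations over loci of 0.985 and 0.983 with the other controls against 0.997 between those, and the GA+H/R libraries correlated with each other at 0.985. The parathyroid label could not be checked well: PTH lay between 0.0972 and 0.142 FPKM in the controls, and CASR and GCM2 were not analysed here. Summed fibroblast markers, 7 of 8, ran from 114923 to 177728 FPKM in control, from 19738 to 19800 in H/R and from 6366 to 6531 in GA+H/R. Summed macrophage markers, 9 of 12, ran from 4.74 to 75.9, from 19.6 to 22.9 and from 146 to 152. Control library 1 held the lowest control value of both sums. In these bulk samples fewer cells of a type and less RNA per cell cannot be told apart, and the part of cell type makeup in the ZNF results was not tested.

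The ZNF genes covered a wide range of levels. Their median level was 27.4 FPKM in control, 7.49 after H/R and 4.68 with GA+H/R, beside 22.4, 8.97 and 5.78 over all loci tested. Of the 155 genes, 44 had a mean under 10 FPKM in control, 89 after H/R and 108 with GA+H/R. They varied more between libraries than other loci did in both H/R groups, with a median coefficient of variation of 13.6%, 11.1% and 14.5% in the 3 groups beside 13.0%, 8.35% and 11.3%. On relative FPKM, the median ZNF gene lay above its own mean over the 9 libraries by 0.27, 0.16 and 0.16 (log2) in the controls. In H/R it deviated by -0.02, -0.08 and -0.06, and in GA+H/R by -0.17, -0.13 and -0.13. The 3 groups did not overlap, and control library 1 held the highest value. Both hold for the same median over all loci tested, at smaller deviations. It lay at 0.046, 0.024 and 0.026 in the controls, 0.015, 0.0099 and 0.013 in H/R and -0.025, -0.022 and -0.020 in GA+H/R. In the table's annotation, 148 of the genes are described as zinc finger proteins, 114 carry the term metal ion binding, 88 regulation of transcription and 57 DNA binding.

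The controls carried part of the membership. No gene passed without a control library at 1 FPKM, 21 would not have passed without the controls, and 16 reached 1 FPKM in the 3 controls and in no other library. Counts over the 155 genes are therefore descriptive, and they are repeated below for the 113 genes at 1 FPKM or more in all 9 libraries. Just inside the threshold, the value that decided membership (the third highest of the 9) was 1.006 FPKM for ZNF574, 1.008 for ZNF322 and 1.03 for ZNF180. Just outside it were ZNF496 at 0.996, ZNF444 at 0.987 and ZNF484 at 0.978.

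**Figure D1:**
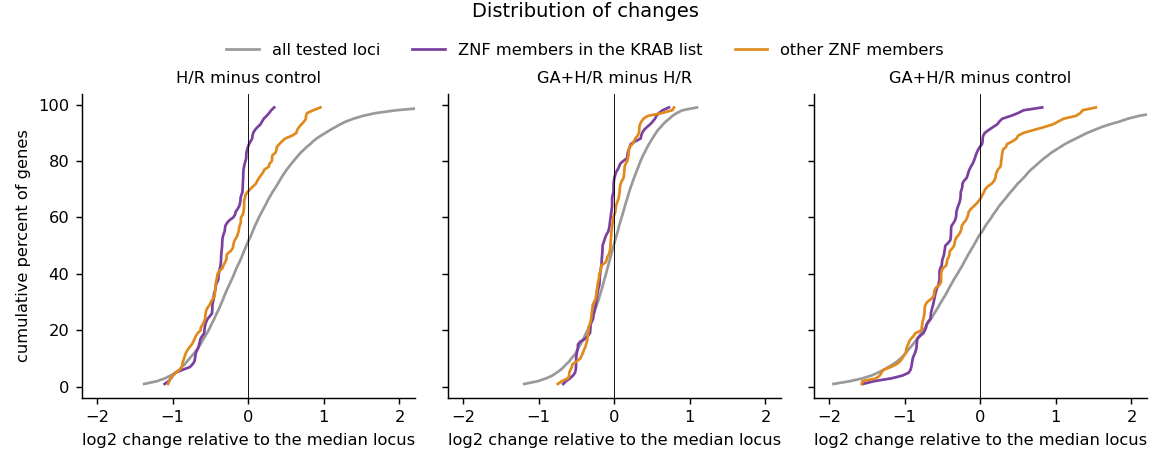
Cumulative percent of genes (vertical axis) against the log2 change relative to the median locus (horizontal axis) in the 3 comparisons, drawn from the 1st to the 99th percentile for all 10996 loci tested (grey), the 59 ZNF genes of the KRAB list (purple) and the 96 other ZNF genes (orange). After H/R against control the purple curve ends short of 0.39, the highest change in the KRAB list, while the orange and grey curves run on to larger increases, and between H/R and GA+H/R the curves lie closer together.

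After hypoxia and reoxygenation, ZNF transcripts shifted downward relative to the median locus. Of the 155 genes, 61 fell, 18 rose and 76 did not pass the test, and the median change was -0.29 (log2). Among all loci tested, 28.9% fell and 27.6% rose, and their median change was -0.03. For the 113 genes measured in every library, 54 fell and 11 rose with a median of -0.37, beside 32.7% of loci lower and 32.6% higher under that filter. The largest falls reached about -1.17 (ZNF304) and -1.15 (ZNF652). The 18 risers ran from 0.27 (ZNF48) to 1.21 (ZNF296), and 0 of them are in the KRAB list. ZNF296 passed the filter through its H/R libraries, so its change is descriptive.

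Control library 1 was the highest control for 90 ZNF genes (58.1%) and for 45.3% of all loci tested. Without it, 139 of the genes passed the filter, of which 48 fell and 17 rose after H/R with a median of -0.21, beside 29.1% and 30.7% of loci. On the deposited FPKM, where the median locus itself changed by -1.25, 151 ZNF genes were lower and 0 higher after H/R (limma, also 0 at an unadjusted p under 0.05), beside 86.0% and 4.18% of loci. With libraries scaled to equal totals, 90 fell and 10 rose, with a median of -0.49. The rises named below are therefore relative to the median locus, and over the 3 comparisons ZNF597, from H/R to GA+H/R, was the 1 ZNF gene called higher as deposited.

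**Figure D2:**
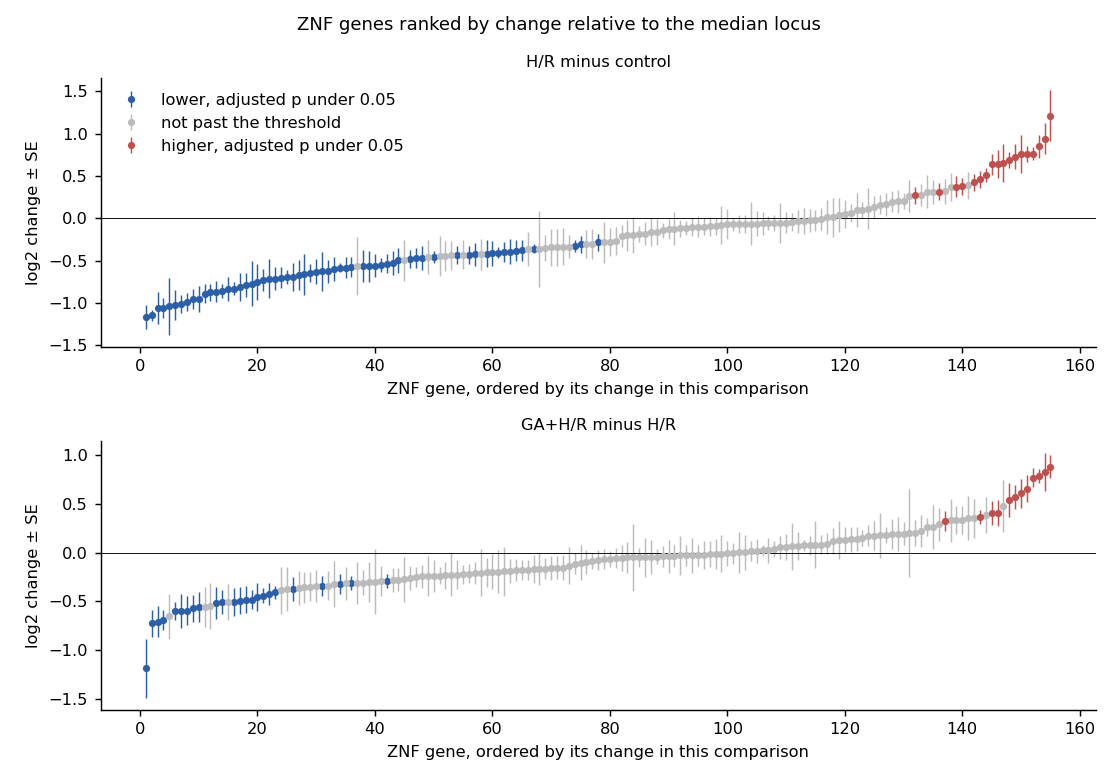
Log2 change relative to the median locus (vertical axis, points with SE bars) of the 155 ZNF genes ordered by their change, in H/R minus control (top) and GA+H/R minus H/R (bottom). Blue points passed the threshold as lower (61 and 24 genes), red points as higher (18 and 12 genes) and grey points did not pass it.

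Among the 6 most abundant ZNF genes, 5 fell after H/R, beside 28.9% of all loci. ZNF207 and ZNF652 fell again in GA+H/R, a step at which 15.2% of all loci fell. The 6 were ranked by mean deposited FPKM over 9 libraries, a scale on which the controls are highest, so the counts are descriptive. ZNF207 encodes BuGZ, a microtubule-binding protein that loads BUB3 onto kinetochores during spindle assembly. It measured 712, 553 and 539.8 FPKM in the controls, 115, 118 and 120.5 after H/R and 41.3, 52.8 and 44.6 with GA+H/R. The groups did not overlap, on this scale or on relative FPKM. Its relative change was -0.88 ± 0.10 (adjusted p = 8.74e-05) after H/R and -0.69 ± 0.10 (adjusted p = 0.0011) from H/R to GA+H/R. ZNF652, a repressor that works with the corepressor CBFA2T3, measured 470.3, 449 and 457 FPKM in the controls, 73.97, 76.05 and 74.4 after H/R and 38.5, 34.8 and 33.2 with GA+H/R. Every library of a group lay far from every library of the others. ZNF652 changed by -1.15 ± 0.07 (adjusted p = 1.45e-06) and then by -0.41 ± 0.07 (adjusted p = 0.00213).

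ZNF644, a partner of the G9a and GLP histone methyltransferases, fell after H/R and did not pass at the next step. Its levels were 426, 367 and 351 FPKM in control, 83.4, 82.9 and 89.4 after H/R and 53.4, 57.2 and 46.5 with GA+H/R. Relative to the median locus that was -0.69 ± 0.08 after H/R (adjusted p = 0.000108), and the GA+H/R libraries then overlapped those of H/R (-0.04 ± 0.08, adjusted p = 0.729). ZNF451, a SUMO ligase, measured 366, 216 and 219 FPKM in control, 71.7, 72.98 and 65.8 after H/R and 32.9, 32.7 and 38.1 with GA+H/R. Control library 1 was far above its fellows. The fall of ZNF451 after H/R was at the threshold (-0.42 ± 0.16, adjusted p = 0.0467) and was -0.20 without that library (adjusted p = 0.0616). It also missed the threshold when any H/R or any GA+H/R library was left out, with adjusted p from 0.0512 to 0.122. ZNF638, which is known for silencing unintegrated retroviral DNA, was the exception among the 6, at 242 ± 41.7 FPKM in control, 80.2 ± 1.13 after H/R and 57.5 ± 2.96 with GA+H/R (SD, n = 3). Its relative change did not pass the test after H/R (-0.12 ± 0.08, adjusted p = 0.259) or between GA+H/R and H/R (0.18 ± 0.08, adjusted p = 0.127). The latter passed without control library 1 (0.18, adjusted p = 0.0188).

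**Figure D3:**
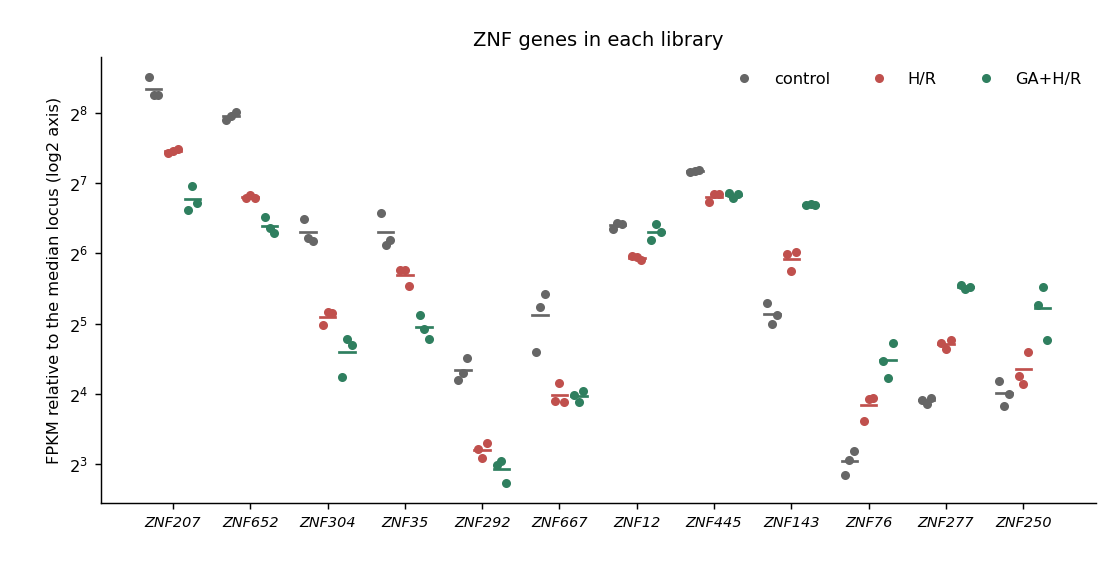
Relative FPKM (vertical axis, log2) of 12 ZNF genes in each library, with 1 point per library and a bar at the group mean for control (grey), H/R (red) and GA+H/R (green). ZNF207, ZNF652, ZNF304 and ZNF35 step down from control to H/R to GA+H/R, whereas ZNF143, ZNF76 and ZNF277 step up without overlap between groups.

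The KRAB repressors had a lower median level than the other ZNF genes, and 0 of them rose after H/R. The list of human KRAB zinc finger genes holds 294 symbols, and the table had 79 of them, with 59 tested. Their median level was 11.3 FPKM in control, 3.14 after H/R and 1.70 with GA+H/R, against 35.9, 13.1 and 7.83 for the other 96 ZNF genes. After H/R, 24 KRAB genes fell (40.7%, beside 28.9% of all loci) and 35 did not pass, with a median of -0.35 (log2), while 27.6% of all loci rose. By limma 1 was higher at an unadjusted p under 0.05, namely ZNF74 (0.39 ± 0.16, adjusted p = 0.0595), and it passed when control library 1 was left out, at 0.46. Outside the list 37 fell, 18 rose and 41 did not pass, with a median of -0.20. The median SE was 0.14 in the KRAB list and 0.13 outside it. Among the genes at 1 FPKM or more in all 9 libraries, 19 of 34 KRAB genes fell and 0 rose, and 35 of 79 others fell and 11 rose. Under that filter 32.7% of all loci fell and 32.6% rose. Whether the 2 sets of ZNF genes differ was not tested.

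ZNF304 had the lowest log2(relative FPKM + 1) change from control of the 155 genes in both H/R groups. This KRAB repressor measured 176, 135 and 128 FPKM in control, 21.2, 24.01 and 23.9 after H/R and 8.003, 11.7 and 11.02 with GA+H/R, with no overlap. It changed by -1.17 ± 0.14 after H/R (adjusted p = 0.000144) and by a further -0.50 ± 0.14 in GA+H/R (adjusted p = 0.0258), in total -1.67 ± 0.14. ZNF667, a KRAB factor first described as Mipu1 in preconditioned heart, passed the test at the first step. Its levels were 47.6, 68.7 and 75.4 FPKM in control, 9.97, 11.998 and 9.94 after H/R and 6.71, 6.25 and 6.94 with GA+H/R, where control library 1 was the lowest control. It changed by -1.06 ± 0.19 (adjusted p = 0.00125) and then by -0.01 ± 0.19, for which the groups overlapped on relative FPKM. ZNF248, another KRAB gene, measured 127, 103 and 101 FPKM, then 20.9, 18.1 and 21.6, then 9.57, 9.64 and 7.43, and fell at both steps (-0.96 ± 0.12, adjusted p = 0.000157, and -0.51 ± 0.12, adjusted p = 0.0118). ZNF436 changed by -0.69 ± 0.17 after H/R (adjusted p = 0.00699), from 203 ± 49.1 to 44.8 ± 4.94 FPKM (SD, n = 3), and did not pass the test at the second step.

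ZNF12 and ZNF84, also KRAB genes, moved in opposite directions in the 2 steps. ZNF12 measured 159.6, 156 and 152 FPKM in control, 41.6, 41.4 and 40.2 after H/R and 30.7, 36.3 and 33.4 with GA+H/R. On relative FPKM these were 81.2, 85.96 and 85.8, then 62.1, 61.7 and 59.8, then 72.8, 85.5 and 78.9: all H/R libraries lay below both other groups, which overlapped. ZNF12 thus fell by 0.46 on the log2 scale (adjusted p = 0.000612) and rose by 0.36 (adjusted p = 0.00519), although its deposited FPKM were lower still in GA+H/R (-0.29). ZNF84 followed the same course at 19.2, 16.5 and 15.4, then 12.3, 11.4 and 9.65, then 13.7, 16.3 and 14.8 relative FPKM (-0.58 ± 0.12, adjusted p = 0.0033, and 0.40 ± 0.12, adjusted p = 0.0324). The second step of ZNF84 missed the threshold when any of 4 libraries was left out, H/R 2 or 3 or GA+H/R 2 or 3, with adjusted p from 0.0644 to 0.106. With libraries scaled to equal totals, the second step passed for neither gene (adjusted p = 0.0673 for ZNF12 and 0.157 for ZNF84, limma).

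ZNF250 and ZNF286A rose from H/R to GA+H/R and did not pass the test after H/R. ZNF250 measured 18.3, 14.3 and 15.99 relative FPKM in control, 19.2, 17.6 and 24.3 after H/R and 38.5, 46.1 and 27.2 with GA+H/R, so that the first 2 groups overlapped and the third lay above both. Its second step was 0.82 ± 0.20 (adjusted p = 0.0123) and its total 1.13 ± 0.20. ZNF286A changed by 0.65 ± 0.14 at the second step (adjusted p = 0.00686), with deposited levels of 24.6 ± 3.34 FPKM after H/R and 24.8 ± 4.44 with GA+H/R (SD, n = 3), so its rise is entirely one relative to the median locus. ZNF74 went the other way in GA+H/R, from 2.57, 2.93 and 3.38 to 0.836, 1.30 and 0.836 FPKM (-0.71 ± 0.16, adjusted p = 0.0085).

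In all, 10 KRAB genes fell and 6 rose from H/R to GA+H/R (the risers were ZNF250, ZNF286A, ZNF567, ZNF569, ZNF84 and ZNF12), with a median of -0.15 over the list. These are 16.9% and 10.2% of the list, beside 15.2% and 18.0% of all loci. From control to GA+H/R, 33 of the 59 fell and 3 rose, ZNF250, ZNF286A and ZNF567, with a median of -0.46, beside 36.6% and 31.9% of all loci.

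The SCAN genes form a small list. Of the 11 tested genes 7 fell and 0 rose (median -0.47), and between GA+H/R and H/R 0 passed in either direction (limma, 1 lower at an unadjusted p under 0.05). All loci gave 28.9% lower and 27.6% higher at the first step and 15.2% and 18.0% at the second. From control to GA+H/R, 9 of the 11 fell, beside 36.6% of all loci. The list overlaps the KRAB list in ZNF197, ZNF202, ZNF263, ZNF274, ZNF445, ZNF446 and ZNF500. ZNF24, a widely expressed SCAN factor, measured 200.1, 153 and 144 FPKM in control, 26.3, 31.9 and 31.1 after H/R and 18.7, 17.9 and 17.97 with GA+H/R. It fell at the first step (-0.99 ± 0.11, adjusted p = 5.93e-05) and did not pass the test at the second (-0.04 ± 0.11, adjusted p = 0.797). ZNF445 carries both a SCAN and a KRAB domain and is known for keeping methylation at imprinted genes. It measured 142, 144 and 145 relative FPKM in control, 106, 115 and 115 after H/R and 116, 110.5 and 114 with GA+H/R. All controls lay above all other libraries, and the 2 H/R groups overlapped (-0.36 ± 0.06, adjusted p = 0.000565, and 0.02 ± 0.06, adjusted p = 0.795). ZNF446 fell by 0.70 (adjusted p = 0.00127), from 77.4 ± 12.9 to 16.9 ± 0.784 FPKM (SD, n = 3). ZNF397 did not pass after H/R (-0.21 ± 0.13, adjusted p = 0.196) and was lower in GA+H/R than in control (-0.52 ± 0.13, adjusted p = 0.00616).

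Genes of chromatin complexes changed in both directions. After H/R 33.3% of them were lower and 16.7% higher, beside 28.9% and 27.6% of all loci. Of 12 tested, 4 fell after H/R (ZNF217, ZNF516, ZNF518B and ZNF644), 2 rose (ZNF219 and ZNF512B) and 6 did not pass, with a median of -0.09. ZNF217, which works with the CoREST and LSD1 repressor complex, measured 199, 186 and 177 FPKM in control, 45.03, 43.7 and 47.02 after H/R and 29.5, 29.9 and 30.7 with GA+H/R. Its relative level fell by 0.58 after H/R (adjusted p = 3.32e-05) and did not pass the test after that (0.07 ± 0.06, adjusted p = 0.358). ZNF532, known as a fusion partner of NUTM1 in NUT carcinoma, moved with the median locus, with 109, 100.02 and 105 relative FPKM in control, 101, 104 and 97.3 after H/R and 91.6, 108 and 89.9 with GA+H/R. The 3 groups overlapped and neither step passed the test. Between GA+H/R and H/R, 15.2% of all loci fell and 18.0% rose. In this list ZNF516 and ZNF518B fell (-0.29 and -0.44, adjusted p = 0.0153 and 0.00299 in limma) and 0 genes rose, also at an unadjusted p under 0.05. Both changes are shown because they are the whole count, and they were picked after their values were seen.

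The promoter and developmental regulators included 4 risers. After H/R 36.4% of them were higher and 27.3% lower, beside 27.6% and 28.9% of all loci. Of 11 tested, ZNF143, ZNF76, ZNF277 and ZNF384 rose after H/R, ZNF148, ZNF281 and ZNF395 fell and 4 did not pass. ZNF143 and ZNF76 encode related activators of small nuclear RNA and many protein-coding promoters. ZNF143 measured 77.3, 57.9 and 61.4 FPKM in control, 42.6, 36.1 and 43.4 after H/R and 43.5, 44.1 and 43.7 with GA+H/R, which on relative FPKM became 39.4, 31.95 and 34.7, then 63.6, 53.7 and 64.6, then 103, 104 and 103. As deposited, controls were the highest and the other groups close together, whereas relative to the median locus the groups rose in order without overlap. The 2 steps were of like size, 0.76 ± 0.10 (adjusted p = 0.000176) and 0.77 ± 0.10 (adjusted p = 0.000575). On the deposited scale they were -0.67 and 0.11.

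ZNF76 and ZNF277 followed the same course as ZNF143. ZNF76 measured 14.2, 15.1 and 16.2 FPKM in control, 8.22, 10.3 and 10.3 after H/R and 9.36, 7.94 and 11.2 with GA+H/R. Its relative FPKM of 7.23, 8.33 and 9.15, then 12.3, 15.3 and 15.4, then 22.2, 18.7 and 26.4 did not overlap between groups. The changes were 0.73 ± 0.15 (adjusted p = 0.00273) and 0.61 ± 0.15 (adjusted p = 0.0135). ZNF277 measured 29.8, 26.4 and 27.1 FPKM in control, 17.7, 16.7 and 18.3 after H/R and 19.7, 19.1 and 19.5 with GA+H/R. Replicates lay close together, and on relative FPKM the groups climbed from 15.2, 14.6 and 15.3 through 26.5, 24.9 and 27.3 to 46.7, 45.02 and 46.04. Both steps passed the test (0.77 ± 0.07, adjusted p = 2.69e-05, and 0.79 ± 0.07, adjusted p = 9.78e-05), while on the deposited scale the first was -0.63. From H/R to GA+H/R, ZNF143, ZNF76 and ZNF277 were the 3 genes of this group that rose and 0 fell (limma, 1 at an unadjusted p under 0.05). At that step 18.0% of all loci rose and 15.2% fell.

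Other promoter factors fell or did not pass the test after H/R. ZNF148, also known as ZBP-89, binds GC-rich promoters and measured 192, 169 and 165 FPKM in control, 34.7, 31.3 and 38.9 after H/R and 19.8, 21.2 and 20.97 with GA+H/R. It fell by 0.86 after H/R (adjusted p = 3.43e-05), and its relative levels in the 2 H/R groups overlapped. ZNF281, a relative of ZNF148, measured 103, 67.9 and 59.3 FPKM in control, 18.8, 21.5 and 20.5 after H/R and 10.2, 10.2 and 9.68 with GA+H/R. Its first step was -0.41 ± 0.15 (adjusted p = 0.0393), with control library 1 again the highest. ZNF521, a regulator of mesenchymal and blood progenitors, did not pass after H/R, at 68.98, 99.5 and 113 FPKM in control and 24.003, 21.9 and 27.5 in H/R (-0.45 ± 0.24, adjusted p = 0.137).

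Genes for RNA binding, ribosome assembly and protein modification changed in both directions too, beside 28.9% of all loci lower and 27.6% higher. Of 9 tested, ZNF106, ZNF207, ZNF326 and ZNF451 fell after H/R, ZNF593 and ZNF830 rose and 3 did not pass. ZNF326, a subunit of the DBIRD complex that links transcription to splicing, measured 152, 106 and 72.7 FPKM in control, 24.9, 24.9 and 27.05 after H/R and 19.03, 16.4 and 17.7 with GA+H/R. As deposited, its controls spread over a wide range above both other groups. On relative FPKM the controls, at 77.3, 58.3 and 41.2, lay above H/R at 37.2, 37.1 and 40.3. They overlapped GA+H/R at 45.1, 38.6 and 41.8. The fall after H/R was -0.57 ± 0.19 (adjusted p = 0.0302). ZNF830, a protein found with spliceosomes, measured 4.91, 5.85 and 4.64 FPKM in control, 3.18, 4.26 and 4.33 after H/R and 2.68, 2.84 and 3.16 with GA+H/R. On relative FPKM all its H/R libraries lay above all controls (0.85 ± 0.13, adjusted p = 0.000626), and the second step did not pass (0.20 ± 0.13, adjusted p = 0.277). ZNF622, which acts in the last steps of making the large ribosomal subunit, passed neither test, at 52.5 ± 7.12 FPKM in control, 18.5 ± 2.31 after H/R and 14.9 ± 2.38 with GA+H/R (SD, n = 3). ZNF207 was the 1 gene of this group that fell from H/R to GA+H/R, and 0 rose (limma, 1 at an unadjusted p under 0.05). All loci gave 15.2% lower and 18.0% higher at that step. From control to GA+H/R, ZNF593, ZNF830 and ZNF330 rose and ZNF106, ZNF207 and ZNF451 fell, beside 31.9% of all loci higher and 36.6% lower.

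Of the 60 ZNF genes in none of these role lists, 24 fell (40.0%), 10 rose (16.7%) and 26 did not pass after H/R, beside 28.9% and 27.6% of all loci. ZNF292, which encodes a very large zinc finger protein mutated in a neurodevelopmental disorder, measured 35.99, 35.6 and 40.5 FPKM in control, 6.22, 5.71 and 6.62 after H/R and 3.36, 3.52 and 2.82 with GA+H/R. It fell by 1.06 at the first step (adjusted p = 8.03e-05) and did not pass at the second. ZNF750, a regulator of epidermal differentiation, was low everywhere, at 4.76, 4.43 and 4.02 FPKM in control, 0.160, 0.431 and 0.786 in H/R, and listed at 0 in 2 GA+H/R libraries with 0.578 in the third. Only its 3 controls reached 1 FPKM, so their lying above every other library follows from how the gene was selected. Its fall (-1.04 ± 0.33, adjusted p = 0.0247) draws on the same control values and is descriptive. Leaving out H/R library 1 or 2 gave an adjusted p of 0.0887 or 0.0612. ZNF32 rose after H/R in 25.8, 27.3 and 13.9 against 10.7, 12.9 and 13.4 relative FPKM, where the third H/R library lay just above the controls. That rise (0.76 ± 0.23, adjusted p = 0.0178) missed the threshold without H/R library 1 or 2 (adjusted p = 0.0666 and 0.0669).

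After gallic acid pretreatment, most ZNF genes did not pass the test against H/R. Between GA+H/R and H/R, 24 fell, 12 rose and 119 did not pass, with a median of -0.08 (log2). Among all loci tested 15.2% fell and 18.0% rose, and their median change was -0.01. Among the 113 genes measured in every library, 17 fell and 11 rose with a median of -0.04, beside 16.8% and 22.8% of loci. Control library 1 enters this comparison through the filter, the scale and the shared spread, and without it 27 fell and 14 rose, beside 21.0% and 23.0% of loci. On the deposited FPKM, where the median locus changed by -0.50, 116 were lower and 1 higher, beside 64.3% and 1.69% of loci. The exception was ZNF597, which lies in an imprinted gene cluster in human. It measured 3.65, 3.49 and 3.14 FPKM in control, 2.09, 1.44 and 1.95 after H/R and 2.28, 2.45 and 2.64 with GA+H/R. Its GA+H/R libraries lay above all H/R libraries on both scales, by 0.88 ± 0.12 relative to the median locus (adjusted p = 0.000837) and by 0.30 as deposited (adjusted p = 0.0460).

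The count of 24 that fell dropped when an H/R library was left out, as did the count over all loci. For the ZNF genes it was 12 without H/R library 1, 17 without H/R library 2 and 13 without H/R library 3. The 12 that rose became 8 without any 1 of them. Over all loci tested, the 1670 that fell became 1121, 1147 and 1169 in that order. The 1982 that rose became 1589, 1512 and 1554. ZNF35 fell most among the genes at 2 FPKM or more, from 187, 126 and 129 in control through 36.4, 36.3 and 31.04 after H/R to 14.7, 12.8 and 11.7 with GA+H/R. The groups did not overlap, and its second step (-0.72 ± 0.14, adjusted p = 0.00425) was of like size to its first (-0.60 ± 0.14, adjusted p = 0.00503). ZNF608 fell at the second step, from 5.58, 5.22 and 5.14 FPKM after H/R to 2.21, 1.97 and 2.02 with GA+H/R (-0.60 ± 0.09, adjusted p = 0.00157), after a first step of -0.14 ± 0.09 that did not pass (adjusted p = 0.217). ZNF362 fell at both, with 66.4, 36.3 and 40.7 FPKM in control, 8.26, 7.08 and 8.43 after H/R and 3.02, 3.06 and 3.39 with GA+H/R. Its second step (-0.60 ± 0.17, adjusted p = 0.0281) missed the threshold without H/R library 1 or 3 or GA+H/R library 1 or 2, with adjusted p from 0.0696 to 0.0847.

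In 4 ZNF genes the 2 steps were called in opposite directions. The share of all loci with opposite calls is not given here, so this count is descriptive. For ZNF12 and ZNF84 the values stand above. ZNF639 measured 89.6, 68.3 and 61.99 relative FPKM in control, 48.6, 45.8 and 45.1 after H/R and 68.1, 54.5 and 63.6 with GA+H/R, a fall of 0.63 (adjusted p = 0.00391) and a rise of 0.40 (adjusted p = 0.0497). That rise lost its call when any 1 of 6 libraries was left out, control 2, H/R 1, 2 or 3 or GA+H/R 1 or 3, with adjusted p from 0.0626 to 0.136. ZNF296, which works with KLF4 in reprogramming to pluripotency, went up and then down at very low levels, from 1.42, 0.578 and 0.833 FPKM in control to 2.47, 1.04 and 1.67 in H/R and to 0.492, 0 and 0.274 in GA+H/R. On relative FPKM its H/R libraries lay above both other groups, which overlapped (1.21 ± 0.30, adjusted p = 0.00788, and -1.18 ± 0.30, adjusted p = 0.0165). ZNF296 reached 1 FPKM in 3 H/R libraries, 1 control and 0 GA+H/R libraries, so it was selected through the group where it is high. Its separation and both its changes draw on the same H/R values and are descriptive. The second step of ZNF296 gave an adjusted p of 0.0612 without H/R library 1, and as deposited its first step did not pass (0.48, adjusted p = 0.0785). As deposited, the second step was -0.29 for ZNF12 (adjusted p = 0.0079), and -0.20 for ZNF84 and -0.25 for ZNF639, which did not pass (adjusted p = 0.222 and 0.201). With libraries scaled to equal totals, the second step did not pass for ZNF12, ZNF84 or ZNF639 (adjusted p = 0.0673, 0.157 and 0.161, limma). Both steps use the same H/R libraries.

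GA+H/R cells were also set against control. Of the 155 genes, 78 fell, 21 rose and 56 did not pass, with a median of -0.40, beside 36.6% and 31.9% of loci and a median of -0.09. Among the 113 measured in every library, 61 fell and 17 rose with a median of -0.47, beside 37.9% and 36.7%. Without control library 1, 60 fell and 24 rose with a median of -0.35, beside 35.6% and 34.3%. On the deposited FPKM 153 were lower and 0 higher (limma, also 0 at an unadjusted p under 0.05), beside 90.1% and 4.10%. ZNF304 (-1.67 ± 0.14), ZNF362 (-1.62 ± 0.17), ZNF207 (-1.56 ± 0.10), ZNF652 (-1.56 ± 0.07) and ZNF248 (-1.46 ± 0.12) fell most, and ZNF277 (1.55 ± 0.07), ZNF143 (1.53 ± 0.10), ZNF76 (1.34 ± 0.15), ZNF597 (1.25 ± 0.12) and ZNF250 (1.13 ± 0.20) rose most among the genes named by the rule. The comparison shares its libraries with the other two and is no independent evidence.

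The corepressors that KRAB proteins rely on were measured in the same libraries. TRIM28, the scaffold they bind, stood at 11.1 ± 1.11 FPKM in control, 4.31 ± 0.137 after H/R and 2.87 ± 0.0894 with GA+H/R (SD, n = 3). Its relative change was 0.09 after H/R (adjusted p = 0.393) and 0.07 from H/R to GA+H/R (adjusted p = 0.577). SETDB1 stood at 90.3 ± 13.7, 35.2 ± 3.15 and 21.8 ± 2.25 FPKM (SD, n = 3), with changes of 0.11 (adjusted p = 0.446) and -0.03 (adjusted p = 0.866). Of 25 partner genes tested, 12 fell and 4 rose after H/R, with a median of -0.33, and 2 fell and 3 rose from H/R to GA+H/R. All loci gave 28.9% lower and 27.6% higher, then 15.2% and 18.0%. The most abundant partners were CHD4 (0.00, a remodelling ATPase), MORC2 (-0.78) and ATF7IP (-0.65), which help the HUSH complex and SETDB1, RBBP4 (-0.53, a histone chaperone), and MTA2 (0.29) and MTA1 (0.57) of the NuRD complex.

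Other zinc finger families were counted in the same way, beside 28.9% of all loci lower and 27.6% higher after H/R. ZBTB genes, which join zinc fingers to a BTB dimerisation domain, gave 15 lower and 1 higher of 27 tested after H/R, with a median of -0.42. Loci named LOC and described as zinc finger proteins gave 42 lower and 3 higher of 95, with a median of -0.37. ZDHHC genes, whose products are palmitoyl transferases and not transcription factors, gave 8 lower and 2 higher of 16 with a median of -0.35. KLF genes gave 4 lower and 1 higher of 10, ZFP genes 3 and 2 of 12, and ZC3H genes, which act on RNA, 4 and 3 of 11. ZMYM, ZMIZ and ZMYND genes gave 5 lower and 2 higher of 10, and ZKSCAN and ZSCAN genes 2 and 1 of 9. These counts stand beside 61 lower and 18 higher of 155 ZNF genes, and differences between families were not tested. As deposited, 0 ZBTB, ZDHHC, KLF, ZFP or ZC3H genes were higher after H/R (limma, also 0 at an unadjusted p under 0.05). On that scale only 4.18% of all loci were higher, so a count of 0 in lists this small says little about the families.

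Long and short housekeeping transcripts changed in opposite directions. Of 35 long housekeeping transcripts 30 fell and 0 rose after H/R (limma, also 0 at an unadjusted p under 0.05), with a median of -0.56, and of 27 short ones 24 rose and 1 fell, with a median of 1.13. From H/R to GA+H/R the long ones had a median of -0.31, with 23 lower, and the short ones 0.38, with 14 higher. As deposited the medians of the short ones were -0.21 at both steps. The lengths of the rabbit ZNF transcripts were not analysed here, and the part of transcript length in the ZNF changes was not tested.

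**Figure D4:**
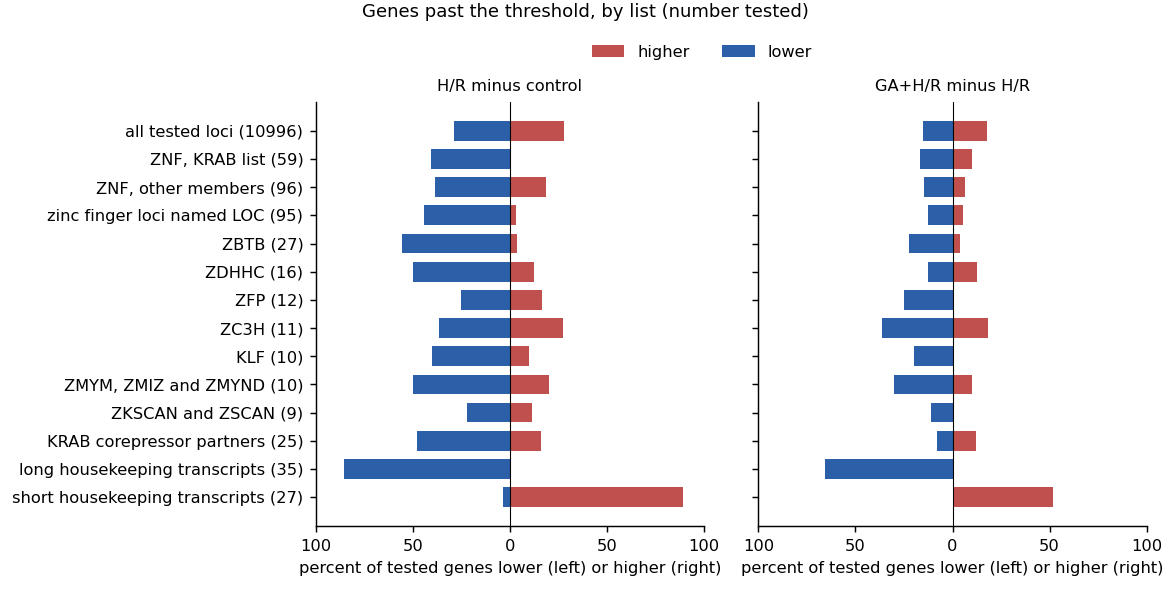
Percent of tested genes past the threshold as lower (blue, to the left) and higher (red, to the right) relative to the median locus, for H/R minus control and GA+H/R minus H/R, with the number tested in brackets. In the left panel the KRAB list shows 24 of 59 lower and no bar to the right, all loci show 28.9% lower and 27.6% higher, and the long and short housekeeping transcripts point in opposite directions.

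Neighbouring ZNF genes shared their calls in some runs and not in others. By gene order in the RefSeq rabbit assembly mOryCun1.1, which matched 146 of the genes by symbol, 25 lie next to another of them, in 11 runs. Next to ZNF304, which fell at both steps, ZNF543 did not pass after H/R (-0.34) and fell with gallic acid (-0.49). ZNF250 rose in GA+H/R against H/R, while its neighbours ZNF34 (-0.19) and ZNF16 (0.19) did not pass. ZNF84 rose and its neighbour ZNF26 did not pass (-0.27) in the same comparison, although both fell after H/R (-0.58 and -0.63). ZNF672, at 1 FPKM or more in only 3 libraries, and ZNF692 both rose after H/R (0.46 and 0.64), with deposited changes of -0.26 and -0.43. These pairs were picked after their values were seen. ZNF genes arise by duplication, and reads from near-identical copies could be split between them, since the counting method is not given in the sources used here.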

How the data were processed

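The table used holds 1 FPKM value for each of 19511 loci in each of 9 libraries from primary parathyroid cells of rabbit, with the unit named per the file headers. The deposited p-value and q-value of 1 test over the 3 groups were left aside. GRCm38 and mm10, which are mouse builds, stand in the submitters' processing notes although the listed transcripts are rabbit ones, and coordinates were therefore not used. Neither aligner nor quantifier is given in the sources used here. Without counts the depth is unknown, and precision rests on 3 libraries a group.

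The deposited FPKM of a library were divided by its median ratio to the mean library (8448 loci). The model in limma 3.58.1 (R 4.3.3, eBayes with trend and robust settings) was run on log2(value + 1) of 9 libraries with a mean per group. P-values were two-sided and Benjamini-Hochberg adjusted over the 10996 loci that reached FPKM 1 in 3 or more libraries, with calls at 0.05. This procedure was tested on simulated data. The ZNF genes, role lists (from general knowledge of the human genes) and tests were chosen with earlier results of these data known. Genes were named by rule: the 6 highest means, up to 5 rising and 5 falling per comparison with groups apart and the higher group averaging 2 FPKM or more, those called in opposite directions, up to 4 per role list, and the threshold's neighbours. Genes named outside it were chosen after their values were seen. Alternatives were the deposited scale, equal totals, quantile normalization, pseudocounts of 0.1 and 0.5, other filters, limma settings, a replicate block and leaving out each library. Replicate numbers in the labels did not pair libraries: over 9 same-numbered pairs, correlations of deviations ran from -0.0206 to 0.0262.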

Additional observations from a re-analysis of the deposited data

How the results depend on the processing

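With FPKM as deposited, 0 genes were called higher and 151 lower after H/R (median -1.53), 1 higher and 116 lower from H/R to GA+H/R (-0.59), and 0 higher and 153 lower from control to GA+H/R (-2.19). With equal totals the higher counts were 10, 7 and 10, the lower counts 90, 24 and 106 and the medians -0.49, -0.15 and -0.69. The medians over all loci tested were then -0.25, -0.08 and -0.39. Of called loci, 30.5%, 41.4% and 31.1% were higher, beside 48.9%, 54.3% and 46.6% on relative FPKM. A pseudocount of 0.1 gave medians of -0.36 after H/R and -0.52 from control to GA+H/R, and array weights -0.20 after H/R. With FPKM of at least 1 in all 9 libraries, 11 were higher after H/R (median -0.37), and the median from control to GA+H/R was -0.47. Leaving out 1 library at a time gave 13 to 19 higher, 48 to 62 lower and medians of -0.32 to -0.21 after H/R. From H/R to GA+H/R it gave 8 to 14, 12 to 27 and -0.11 to -0.05, and from control to GA+H/R 16 to 24, 60 to 77 and -0.45 to -0.35. The replicate block gave 19 higher and 57 lower, 10 and 21, and 20 and 77, and it ended 1 call among the named genes, that of ZNF451 after H/R (adjusted p = 0.0569, limma).

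Changes of named genes reversed on the deposited scale only. After H/R these were ZNF143 (-0.67), ZNF277 (-0.63), ZNF32 (-0.61), ZNF76 (-0.61) and ZNF830 (-0.32). From H/R to GA+H/R they were ZNF12 (-0.29), ZNF445 (-0.63), ZNF638 (-0.48), ZNF639 (-0.25) and ZNF84 (-0.20). From control to GA+H/R they were ZNF143 (-0.56), ZNF250 (-0.90), ZNF277 (-0.49), ZNF597 (-0.36), ZNF638 (-2.04) and ZNF76 (-0.63). Of 52 changes of named genes, 28 kept direction and call as deposited, 47 with equal totals, 51 with quantile normalization, 48 with a pseudocount of 0.1 and 47 with no filter. Read depth is unknown, and low genes such as ZNF296 and ZNF750 lost a call with a pseudocount of 0.1 while the size of the change grew (2.12 and -1.86 after H/R, adjusted p = 0.0598 and 0.14, limma).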

Other observations

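ZNF names also appear in 7 loci that the table joins with a neighbouring gene, and these were left out of the 155 genes. The locus ZSCAN25;ZNF655 measured 254, 197 and 192 FPKM in control, 42.8, 42.9 and 39.1 in H/R and 29.8, 32.3 and 28.4 in GA+H/R. It fell by 0.89 after H/R relative to the median locus (adjusted p = 4.01e-05, limma) and did not pass the test from H/R to GA+H/R (0.20, adjusted p = 0.114). ZSCAN18;ZNF329, at 260 ± 37.6, 67.6 ± 5.91 and 36.9 ± 5.62 FPKM (SD, n = 3), fell by 0.47 after H/R (adjusted p = 0.00769, limma). LOC100352369;ZNF45 fell at both steps (-0.39 and -0.66, adjusted p = 0.0137 and 0.00202, limma). ZNF282;ZNF398 and LOC103345522;ZNF10 fell after H/R (-0.49 and -0.48), ZNF862;ATP6V0E2 did not pass (-0.21, adjusted p = 0.0736, limma), and ZNF470;LOC103345562 was near 0 in every library and not tested.

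Below the threshold, the highest single values among the 53 ZNF names left out were 2.30 FPKM for ZNF704 and 1.59 for ZNF367. With a threshold of 0.5 FPKM 179 names would have been kept, and with 2 FPKM 138.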
